A study of Homo sapiens with 24 samples.

Results

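FOXA1, TMPRSS2, KLK2, KLK3, FKBP5, STEAP1, FOLH1 and ACPP, 8 genes known from the androgen-regulated, luminal side of the prostate epithelium, were followed through 24 RNA sequencing libraries of the human prostate cell lines BPH-1 and RWPE-1. The genes were picked by symbol, with earlier results of these data known, and are 8 of the 60448 gene symbols in the tables and 8 of the 19221 that are protein-coding. BPH-1 is an epithelial line from benign prostatic hyperplasia and RWPE-1 one from normal adult prostate, immortalized with viral oncogenes. In both lines the control carried the empty vector ILYW, and the C-Raf parental cells overexpressed C-Raf from a lentiviral vector, driven by the Ub promoter according to the study's methods. For BPH-1, the titles of vector control libraries and of C-Raf parental ones also name a secreted luciferase reporter, sGluc. Metastasis-derived lines were grown out for about a week from macroscopic tumours that C-Raf cells had formed in NOD-scid gamma mice after intracardiac injection, from bone, spine, lymph node or thymus. There were 3 vector control, 3 C-Raf parental and 6 metastasis-derived libraries of BPH-1, against 1, 4 and 7 of RWPE-1. Of the pair of BPH-1 lines numbered R075, the titles name bone for one and thymus for the other, and the treatment labels name the sites the other way round, so "thymus line R075" is only the title of a library here and no site was compared. RWPE-1 was kept in a serum-free keratinocyte medium with bovine pituitary extract and EGF, and BPH-1 in a serum-containing medium that the methods name as RPMI and the labels as DMEM, so medium and cell line cannot be told apart, and no source names an added androgen. Nothing in the labels says that libraries of a group came from separate cultures, so p-values measure the spread between these libraries, which may be technical.

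Androgen binds its receptor in luminal secretory cells of the prostate, and the receptor then enters the nucleus and acts with the pioneer factor FOXA1, which opens chromatin for it. Its classical targets include the secreted proteases KLK2 and KLK3 (prostate-specific antigen), the membrane protease TMPRSS2, the receptor cochaperone FKBP5 and the secreted acid phosphatase ACPP, while the surface proteins STEAP1 and FOLH1 (prostate-specific membrane antigen) are best known as targets of antibodies and radioligands in prostate cancer. Basal cells, which the keratin pair KRT5 and KRT14 marks, make little of these products. C-Raf is a kinase of the MAPK pathway, and the libraries were made to ask what its overexpression, and then growth as a metastasis, did to the transcriptome.

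Total expected counts in 21 libraries ran from 25997814 to 52851374, of which 20574579 to 42014448 fell on protein-coding genes, so that 3 counts stood for 0.0714 to 0.146 CPM (counts scaled to the library's protein-coding total) before scaling by edgeR's trimmed mean of M-values (TMM). Levels are given in CPM after that scaling, on which 3 counts stood for 0.0672 to 0.246 CPM, the highest in BPH-1 bone line R072. In the remaining 3, all BPH-1 metastasis-derived libraries titled bone (R071, R074 and R075), the noncoding RNA RN7SL1 took 93.3% to 97.5% of the counts and left 111181 to 465016 protein-coding counts, so that 3 counts stood for 6.45 to 27.0 CPM. These 3 are low in depth and were kept out of the fits and group means. RN7SL1 took up to 30.3% of the counts in the deeper libraries, in BPH-1 bone line R072, whose scaling factor of 0.592 also stood apart from the 0.947 to 1.10 of the other 20. In BPH-1 the metastasis-derived libraries came in one table and the cultured cells that had not been injected in another, so stage and table cannot be told apart. For RWPE-1, the vector control, C-Raf parental library 1 and lines LN1A, LN1B and Spine shared a table, and the other RWPE-1 libraries shared another.

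The sequences just before the transcription starts of KLK3, KLK2, STEAP1 and STEAP2 are shown because KLK3 and KLK2 are the 2 of the 8 genes that stayed at or near 0 counts, whereas STEAP1 was higher with C-Raf in both lines and STEAP2 is its neighbour on chromosome 7. They are the 250 bases upstream of the RefSeq start (GRCh38.p14), 5′ to 3′ on the gene's strand, at chr19:50854665-50854914 (+) for KLK3, chr19:50873189-50873438 (+) for KLK2, chr7:90154219-90154468 (+) for STEAP1 and chr7:90211490-90211739 (+) for the first of the STEAP2 starts. Capitals mark matches, on either strand, to TATAAA (the core promoter box that binds TBP), AGAACA (a steroid receptor half-site), TGTTTAC (forkhead), TGACTCA (AP-1) or CCGGAAG (ETS), and TTTATA is the first of these read on the other strand.
KLK3: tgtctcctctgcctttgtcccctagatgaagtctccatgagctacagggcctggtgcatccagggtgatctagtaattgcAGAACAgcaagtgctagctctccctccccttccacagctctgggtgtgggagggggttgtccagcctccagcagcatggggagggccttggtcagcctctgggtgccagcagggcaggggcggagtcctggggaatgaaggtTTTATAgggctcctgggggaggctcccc
KLK2: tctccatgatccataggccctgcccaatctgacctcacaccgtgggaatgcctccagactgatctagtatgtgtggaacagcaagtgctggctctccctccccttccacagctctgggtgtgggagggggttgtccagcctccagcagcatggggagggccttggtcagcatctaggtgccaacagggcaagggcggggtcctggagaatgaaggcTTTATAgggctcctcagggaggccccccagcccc
STEAP1: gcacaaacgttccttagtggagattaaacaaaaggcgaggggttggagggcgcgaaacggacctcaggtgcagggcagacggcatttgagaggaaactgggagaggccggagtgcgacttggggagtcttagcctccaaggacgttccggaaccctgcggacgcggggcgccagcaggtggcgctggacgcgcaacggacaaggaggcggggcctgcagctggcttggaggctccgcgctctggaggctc
STEAP2: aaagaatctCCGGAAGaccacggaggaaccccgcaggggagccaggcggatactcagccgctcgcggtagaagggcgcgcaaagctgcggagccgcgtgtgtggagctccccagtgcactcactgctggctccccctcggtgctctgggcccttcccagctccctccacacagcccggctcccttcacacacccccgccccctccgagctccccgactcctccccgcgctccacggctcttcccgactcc

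The window of KLK3 held AGAACA from 170 to 165 bases before the start and TATAAA on the reverse strand from 28 to 23 bases before it, and that of KLK2 held TATAAA on the reverse strand from 34 to 29 bases before the start. Only exact letters were searched. In the like stretch of the KLK2 window GGAACA stands in place of AGAACA, so the missing match does not show that KLK2 lacks a receptor site. The STEAP1 window held none of the letters searched, and the STEAP2 window held CCGGAAG from 241 to 235 bases before the start. The window of a second STEAP2 start, chr7:90213570-90213819 (+), held TATAAA from 44 to 39 and TGTTTAC on the reverse strand from 66 to 60 bases before that start, with a CpG ratio of 0.3. The windows also differed in CpG content: the observed count of CpG pairs was 0.0438 and 0.0854 of the count expected from base composition for KLK3 and KLK2, but 0.861 and 0.741 for STEAP1 and STEAP2. It was also low for ACPP (0.196) and the first FKBP5 start (0.145), and high for FOXA1 (0.977) and the second FKBP5 start (0.856). The median over all 35116 RefSeq windows of this length was 0.558. Among those windows, TATAAA occurred in 10.7%, AGAACA in 12.4%, TGTTTAC in 2.98%, TGACTCA in 4.2% and CCGGAAG in 8.52%. The windows of FOXA1, ACPP and both FKBP5 starts held no match, and no window was at hand for TMPRSS2 and FOLH1.

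FKBP5 made up most of the summed level in every RWPE-1 group, whereas the leading gene differed between the BPH-1 groups. Per kilobase of exon, the only scale on which levels of different genes are set side by side here, FKBP5 made up 93.2%, 85.5% and 87.3% of the summed level of the 8 genes in RWPE-1 at the vector control, parental and metastasis stages, at group means of 88.6, 60.1 and 59.6 CPM per kb. In BPH-1, FOXA1 made up 43.6% in vector control, and STEAP1 made up 56.4% in C-Raf parental and 46.6% in metastasis-derived cells, where TMPRSS2 and ACPP added 12.04% and 11.8%. KLK2 and KLK3 added nothing measurable in any group.

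**Figure D1:**
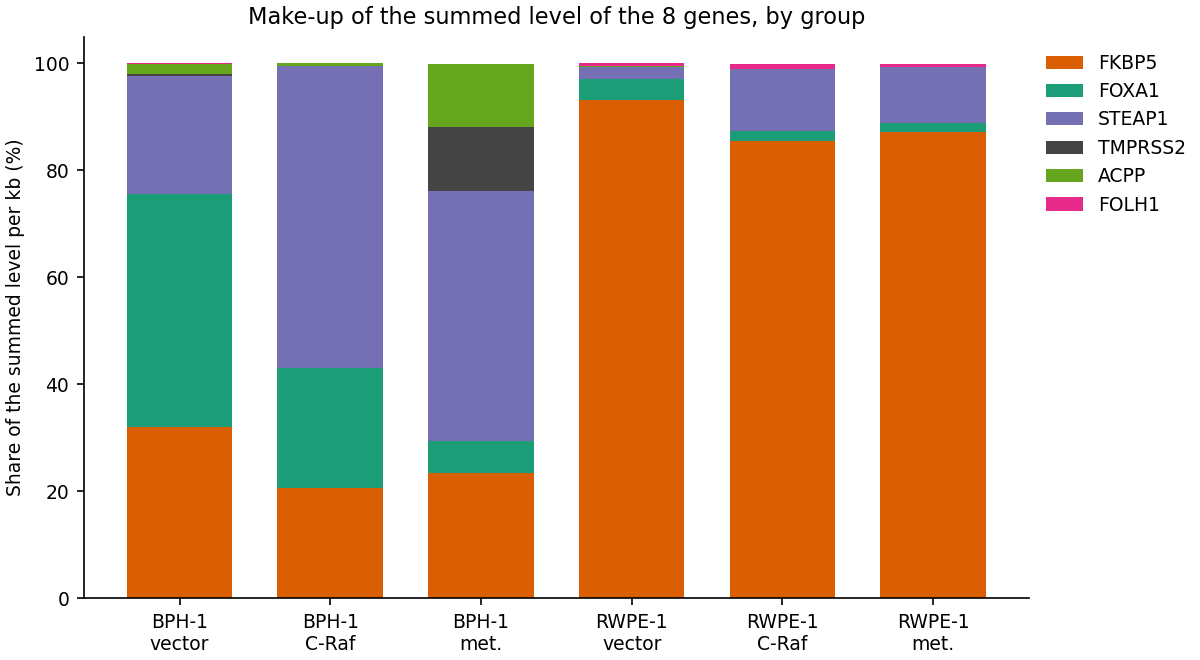
Share of each of the 8 genes in their summed level per kilobase of exon (%, y axis), as group means of the 21 deeper libraries, for the 6 groups (x axis; met., metastasis-derived). FKBP5 fills 85.5% to 93.2% of the bars of RWPE-1, while FOXA1 leads in BPH-1 vector control and STEAP1 in the other BPH-1 groups; KLK2 and KLK3 are too low to be drawn.

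The 8 genes did not move as a group. Of the 4 genes that passed the filter on low counts in BPH-1 C-Raf parental against vector control cells, STEAP1 rose and FOXA1, FKBP5 and ACPP fell, with a median log2 fold change of -0.31 against -0.0018 over all 13235 genes tested. As 59.8% of all genes tested were called in that comparison (30.4% higher and 29.4% lower, edgeR quasi-likelihood test, Benjamini-Hochberg adjusted p below 0.05), nothing is read from a count over 4 genes. In BPH-1 metastasis-derived against C-Raf parental cells, 2 of 5 tested genes were called, TMPRSS2 and ACPP, both higher, where 37.7% of all genes were called and 21% were called higher (16.8% lower). TMPRSS2 and ACPP, with 2 to 6 and 5 to 15 counts in the C-Raf parental libraries, passed the filter through the metastasis-derived lines in which they are high, so nothing is read from that count. None of 5 tested genes was called by edgeR in RWPE-1 C-Raf parental cells against the vector control, where 0.396% of all genes were called; 4 of the 5 had an unadjusted p below 0.05, as had 2506 of all 13886 genes, and DESeq2 called 1, STEAP1. None of 5 was called in RWPE-1 metastasis-derived against C-Raf parental cells, where 0.115% of all genes were called; 1 of the 5 had an unadjusted p below 0.05, as had 1129 of all 13886 genes, and DESeq2 called 0. RWPE-1 against BPH-1 C-Raf parental cells differed in all 4 tested genes, with FKBP5 and FOLH1 higher and FOXA1 and STEAP1 lower in RWPE-1, against a background of 74% of genes called (38% higher and 36% lower). FOLH1, with 0 counts in the BPH-1 libraries of that comparison, passed the filter through RWPE-1, so nothing is read from this count either.

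**Figure D2:**
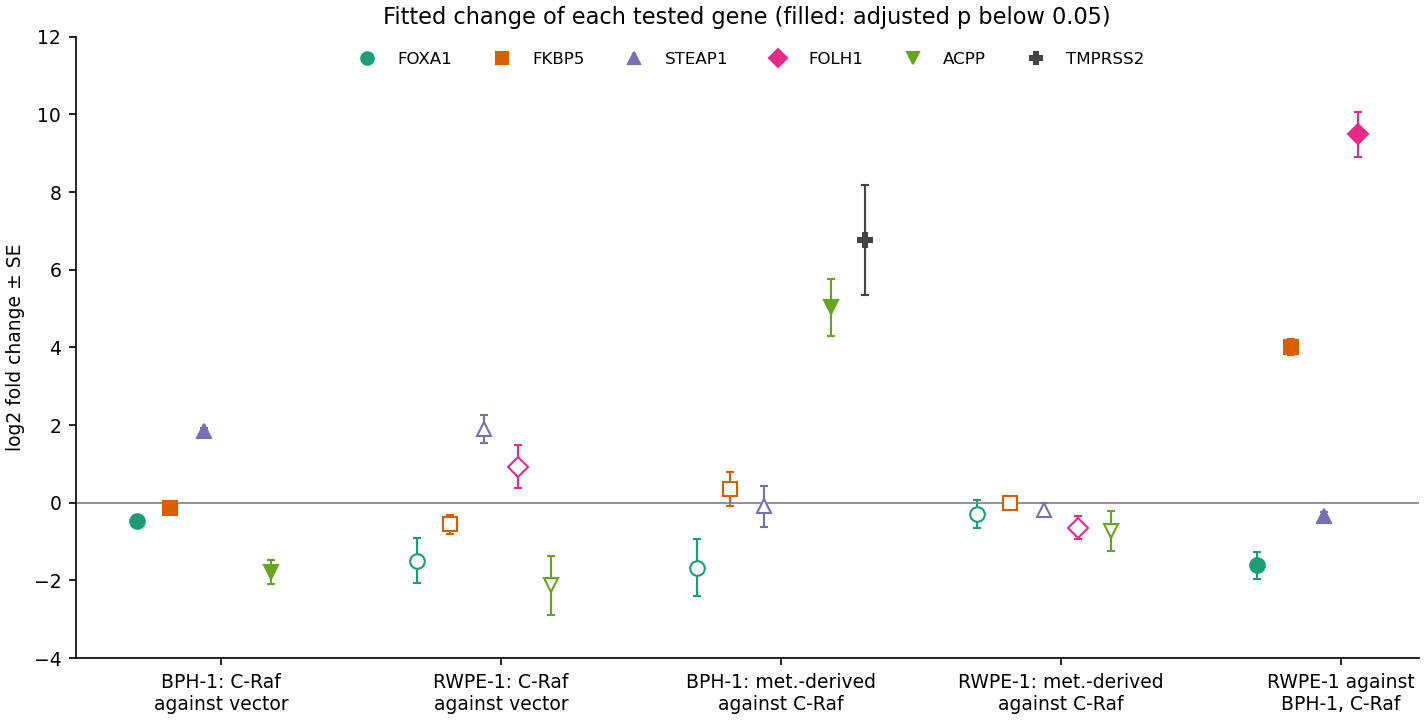
Fitted log2 fold change with its standard error (y axis) of each tested gene in 5 comparisons (x axis), with filled markers for an adjusted p below 0.05 (edgeR). STEAP1 sits near 1.9 in both C-Raf parental against vector comparisons, ACPP and TMPRSS2 stand at 5.04 and 6.76 in BPH-1 metastasis-derived against C-Raf parental cells, and FKBP5 at 4.01 in RWPE-1 against BPH-1, where the higher point of FOLH1 is a fit against 0 counts and no measured fold.

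FOXA1 (ENSG00000129514, chromosome 14, 37589984 to 37596059, minus strand in GENCODE 29, GRCh38) was highest in vector control cells of each line. Its levels were 21.9, 23.4 and 21.9 CPM in the BPH-1 vector controls, 14.7, 16.9 and 16.7 CPM in the C-Raf parental libraries, and 2.96, 0.985 and 10.5 CPM in bone line R069, bone line R072 and thymus line R075. No BPH-1 group overlapped another, and the metastasis-derived lines spread over 12 to 276 counts. The fall from vector control to C-Raf parental cells was small, 1.38-fold, with a log2 fold change of -0.47 ± 0.059 (SE, adjusted p = 1.02e-07, n = 3 and 3). From C-Raf parental to metastasis-derived cells the log2 fold change was -1.68 ± 0.73 (adjusted p = 0.116), and it was called by DESeq2 (-1.68, adjusted p = 0.0431) and, at -2.88, without thymus line R075 (adjusted p = 0.00656).

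In RWPE-1 FOXA1 stood at 14.9 CPM in the vector control. The C-Raf parental libraries held 9.66, 4.07, 3.96 and 3.36 CPM, and the 7 metastasis-derived lines ran from 2.26 through a median of 4.26 to 7.67 CPM, in line Spine. The vector control lay above all 11 libraries with C-Raf, and the C-Raf parental and metastasis-derived ranges overlapped. The log2 fold change of -1.497 ± 0.58 from vector control to C-Raf parental cells was not called (adjusted p = 0.216); it was -1.97 and called without C-Raf parental library 1 (adjusted p = 0.0296), and -0.62 within the table that holds the vector control (adjusted p = 0.523). Only 1 vector control library exists in RWPE-1, whose spread was taken to be that of the other RWPE-1 groups. FOXA1 was lower in RWPE-1 than in BPH-1 C-Raf parental cells by 3.06-fold (log2 fold change -1.61 ± 0.35, adjusted p = 0.00395), a difference of -0.23 between the metastasis-derived lines (adjusted p = 0.736).

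Partners of the receptor were described with FOXA1 from a list of 12 cofactors, all tested. In BPH-1, where 29.4% of all genes fell and 30.4% rose, 9 of the 12 fell with C-Raf, led by GATA3 (-1.31), GATA2 (-0.79), NCOA1 (-0.75) and NCOA2 (-0.74), and 3 rose, with a list median of -0.36. GATA2 and GATA3, zinc finger factors that open chromatin in luminal cells, fell again in the metastasis-derived lines, by 2.32 ± 0.20 (adjusted p = 0.00151) and 1.53 ± 0.35 (adjusted p = 0.0165) on the log2 scale. GATA2 thus stood at means of 34.0, 19.6 and 3.76 CPM over the 3 BPH-1 stages. In the same step FKBP4, a cochaperone of steroid receptors, fell by 2.48 and NCOA3, NCOA1, NCOA2 and PIAS1 rose. In RWPE-1 none of the 12 was called by edgeR in the C-Raf or the metastasis step, where 0.396% and 0.115% of all genes were called. Of the 12, 4 and 1 were below an unadjusted p of 0.05, as were 2506 and 1129 of all 13886 genes, and DESeq2 called 0 in both. FOXA2, the paralog of FOXA1 known from endoderm and from neuroendocrine prostate cancer, went the other way with C-Raf in BPH-1: its mean was 1.29 ± 0.064 CPM in vector control, 20.9 ± 1.1 in C-Raf parental and 3.01 ± 3.4 in metastasis-derived libraries (SD, n = 3 each), a rise of 16.2-fold (log2 fold change 4.02 ± 0.096, adjusted p = 1.37e-23) followed by a fall of 6.61-fold (-2.72 ± 0.80, adjusted p = 0.0376). In RWPE-1, FOXA2 stood at 3.70 CPM in the vector control and at a mean of 8.48 ± 3.0 CPM (SD, n = 4) in C-Raf parental cells, with a log2 fold change of 1.20 ± 0.76 (adjusted p = 0.410).

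**Figure D3:**
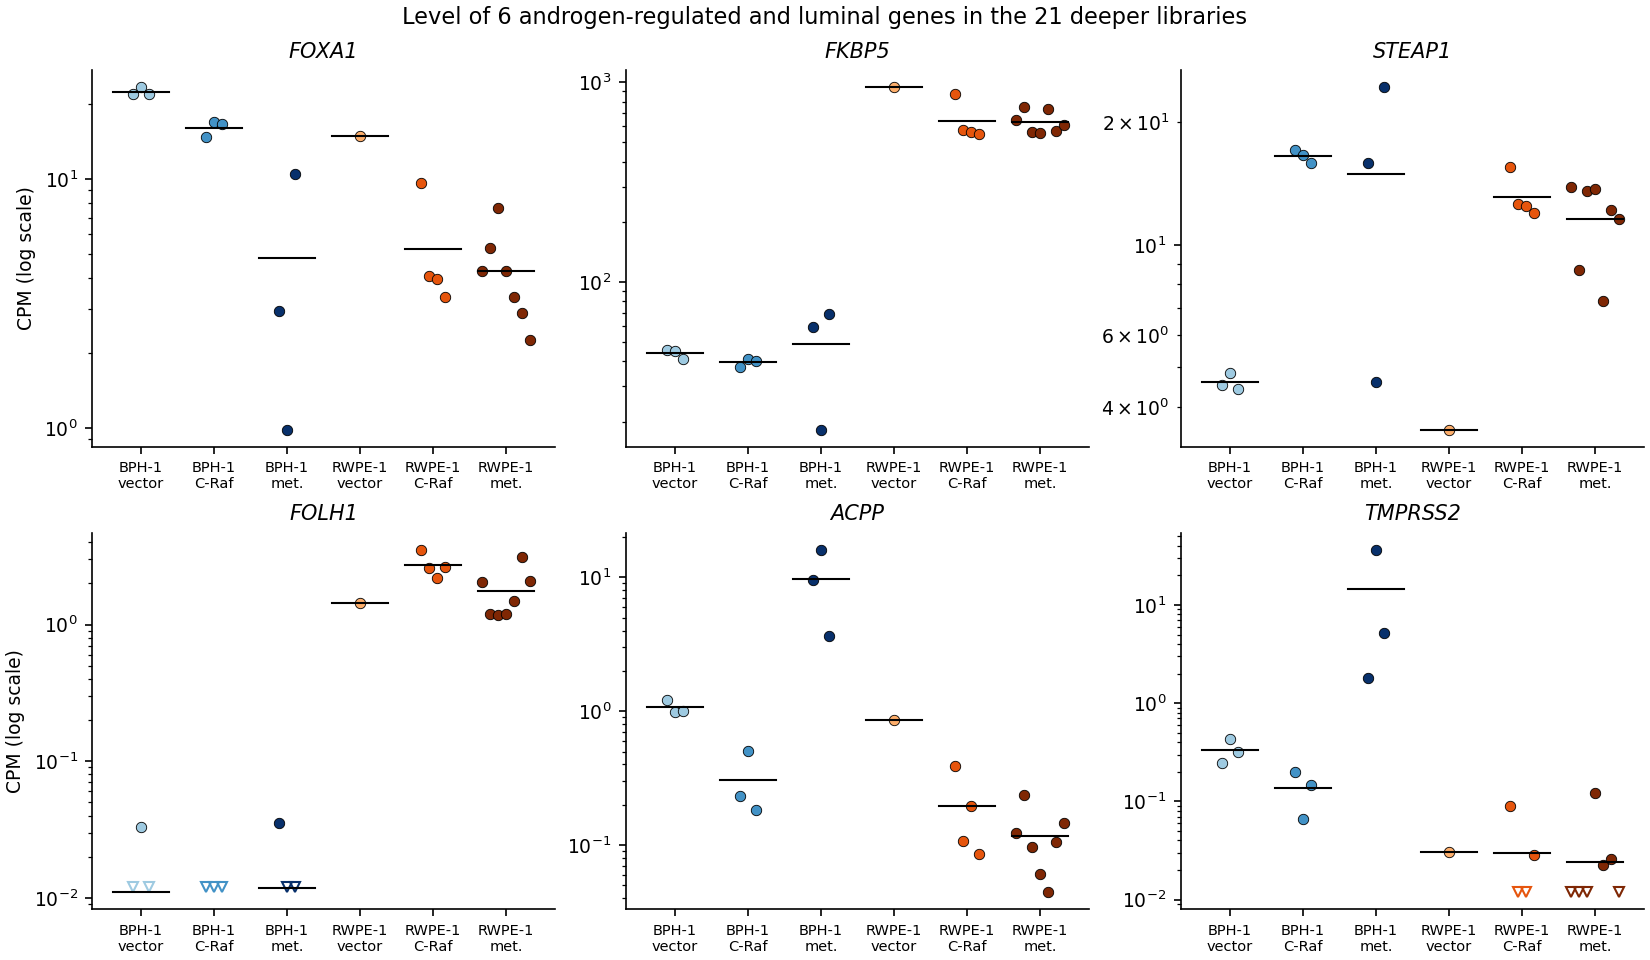
Level of FOXA1, FKBP5, STEAP1, FOLH1, ACPP and TMPRSS2 (CPM, log y axis) in each of the 21 deeper libraries (points) of the 6 groups (x axis), with the group mean as a line and open triangles for libraries at 0. STEAP1 is low in both vector controls and high in all other groups but for bone line R072 at 4.60 CPM; FKBP5 and FOLH1 separate the cell lines, and ACPP and TMPRSS2 are high in the 3 BPH-1 metastasis-derived lines.

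FKBP5 (ENSG00000096060, chromosome 6, 35573585 to 35728583, minus strand), which binds the chaperone complex of steroid receptors and is induced by androgen, glucocorticoid and progesterone, separated the cell lines. It stood at 41.0 to 45.5 CPM in the BPH-1 vector controls, 37.6 to 41.2 in C-Raf parental libraries, and 59.5, 18.2 and 68.96 in lines R069, R072 and R075 thymus. RWPE-1 held 942 CPM in the vector control, 870.4, 573, 561 and 551 in C-Raf parental libraries and 557 to 753, with a median of 608, in metastasis-derived lines. Every RWPE-1 library was above every BPH-1 library, and the lowest RWPE-1 library held 551 CPM against a BPH-1 maximum of 68.96. Between C-Raf parental cells the difference was 16.2-fold (log2 fold change 4.01 ± 0.20, adjusted p = 2.16e-06, n = 4 and 3), called in all 7 fits that left out 1 library, and it was 3.65 between the metastasis-derived lines (adjusted p = 1.16e-05).

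Within a line FKBP5 moved little. The fall with C-Raf in BPH-1 was 1.11-fold (-0.14 ± 0.045, adjusted p = 0.00778) and was not called without vector control 1 (adjusted p = 0.0579) or without C-Raf parental 1 (adjusted p = 0.0821). In RWPE-1 the change with C-Raf was -0.56 ± 0.25 (adjusted p = 0.264), -0.74 and called without C-Raf parental library 1 (adjusted p = 0.0264), and -0.11 within the table of the vector control (adjusted p = 0.836). In the BPH-1 metastasis-derived lines it was 0.35 ± 0.44 (adjusted p = 0.555), and 0.72 and called without line R072 (adjusted p = 0.0024).

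Other genes that glucocorticoid induces were set beside FKBP5, from a list of 10. In RWPE-1 against BPH-1 C-Raf parental cells, where 38% of all genes were called higher and 36% lower, 5 were higher, KLF9 (7.97), PER1 (2.89), ERRFI1, the receptor NR3C1 and TSC22D3, and 2 were lower, CRISPLD2 (-2.52) and SGK1. ZBTB16, with 0 counts in these BPH-1 libraries, passed the filter through RWPE-1 and is left out of that count. KLF9, a Krüppel-like factor that steroid hormones induce, was at 92.6 ± 8.2 CPM (SD, n = 4) in RWPE-1 and 0.363 ± 0.14 (SD, n = 3) in BPH-1. With so low a BPH-1 level, KLF9 passed the filter, here and in the BPH-1 steps below, through the groups where it was higher. The counts of this list include KLF9, and nothing is read from its calls. At the BPH-1 metastasis step, where 21% of all genes were called higher and 16.8% lower, 5 of 9 tested genes of this list were higher, KLF9 (3.13 ± 0.61, adjusted p = 0.0104), the clock gene PER1 (2.79 ± 0.37, adjusted p = 0.00339), the phosphatase DUSP1 (2.62 ± 0.74, adjusted p = 0.0341), GADD45B and NR3C1, and none lower. Their median was 2.15 against 0.075 over all genes, while FKBP5 itself was not called. Before that, with C-Raf, where 29.4% of all genes fell and 30.4% rose, 5 of 9 had fallen in BPH-1, among them KLF9 (-1.37), DUSP1 (-1.06) and CRISPLD2 (-0.99), and 1, ERRFI1, had risen. In RWPE-1 edgeR called none of 10 in the C-Raf or the metastasis step, against the same shares of 0.396% and 0.115%. Of the 10, 2 and 0 were below an unadjusted p of 0.05 (2506 and 1129 of all 13886 genes), and DESeq2 called TSC22D3 in both.

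STEAP1 (ENSG00000164647, chromosome 7, 90154375 to 90164829, plus strand), a six-transmembrane protein of the metalloreductase family that is displayed on prostate cancer cells, was higher with C-Raf than with vector by nearly the same factor in both lines. In BPH-1 it went from 4.54, 4.84 and 4.43 CPM in vector control to 17.1, 16.6 and 15.9 CPM in C-Raf parental libraries. In RWPE-1 it went from 3.52 CPM (115 counts) to 15.5, 12.6, 12.48 and 11.96 CPM. The vector and C-Raf parental ranges did not overlap in either line. The difference was 3.62-fold in BPH-1 (log2 fold change 1.86 ± 0.076, adjusted p = 4.38e-18) and 3.74-fold in RWPE-1 (1.90 ± 0.37), where the adjusted p of 0.0565 missed the threshold. In RWPE-1 it was 2.14 within the table of the vector control and 1.81 without C-Raf parental library 1 (adjusted p = 0.0162), and DESeq2 gave 1.91 (adjusted p = 1.63e-05). That difference rests on 1 vector control. It was called in only 2 of 11 fits that left out 1 library and, of 6 other settings, only by DESeq2. Fitted over both lines with a cell line term, it was 1.87 ± 0.30 (adjusted p = 0.00555) in a comparison that called 0.814% of all genes (0.420% higher), and it was called in 21 of 21 fits that left out 1 library (1.80 to 1.93). That fit shares its libraries with the fits within a line and is no further evidence.

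The metastasis-derived lines showed no further step of STEAP1 on average. In BPH-1 the 3 deeper lines held 15.9, 4.60 and 24.4 CPM, the last in thymus line R075, so they reached from the vector control level, in R072 (2.72 CPM without its scaling factor), to above the C-Raf parental libraries. In RWPE-1 the 7 lines ran from 7.28 (Bone4) through a median of 12.2 to 13.9 CPM (LN1A), overlapping the C-Raf parental libraries and lying above the vector control. The log2 fold changes against C-Raf parental cells were -0.095 ± 0.52 in BPH-1 (adjusted p = 0.897, 0.31 without R072) and -0.18 ± 0.18 in RWPE-1 (adjusted p = 0.842), and the difference between them was -0.062 ± 0.48 (interaction, adjusted p = 0.936). Between the lines STEAP1 was 1.26-fold lower in RWPE-1 C-Raf parental cells (-0.33 ± 0.11, adjusted p = 0.0223), a call that 4 of 7 fits leaving out 1 library did not make (highest adjusted p = 0.0755).

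STEAP2 and STEAP1B were read with STEAP1 because the GENCODE 29 record of STEAP2 begins 2760 bases past the end of STEAP1 on the same strand (both RefSeq starts above lie further along, within that record) and because 21.4% of the 50-base words in STEAP1 transcripts (347 of 1622) also occur in STEAP1B, so that counts can be split between the latter pair. STEAP2 was higher with C-Raf than with vector in both lines. It went from 7.83 to 11.04 CPM in vector control to 13.3 to 13.9 CPM in BPH-1 C-Raf parental cells (log2 fold change 0.59 ± 0.087, adjusted p = 1.56e-06) and from 1.5 CPM to 7.98 to 11.1 CPM in RWPE-1, 6.55-fold (2.71 ± 0.47, adjusted p = 0.0322). That call rests on 1 vector control: it was lost in a fit without the metastasis-derived lines (adjusted p = 0.0977), within the table of the vector control (2.41, adjusted p = 0.104), with a table term (adjusted p = 0.0618), and in 4 of 11 fits that left out 1 library (C-Raf parental 2, 3 or 4 or line Spine, adjusted p = 0.0556 to 0.0724). STEAP1B was at 0 to 0.176 CPM in BPH-1. In RWPE-1 it stood at 6.43 CPM in vector control, 13.2 to 17.5 in C-Raf parental and 5.13 to 19.8 CPM in metastasis-derived lines. Its log2 fold change with C-Raf in RWPE-1 was 1.21 ± 0.55 (adjusted p = 0.270). These levels rest on the same division of shared reads, and the part of STEAP1B in STEAP1 counts was not tested. STEAP3 rose with C-Raf in BPH-1 (0.69 ± 0.052, adjusted p = 5e-12) and over both lines (0.67 ± 0.14, adjusted p = 0.029). STEAP4, which lies on the same chromosome, followed another pattern: it was at 0.03 to 0.213 CPM in RWPE-1, at 3.16 to 4.51 CPM in BPH-1 before injection, and rose 4.28-fold in the BPH-1 metastasis-derived lines to 11.98 to 16.1 CPM (2.10 ± 0.22, adjusted p = 0.00211).

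**Figure D4:**
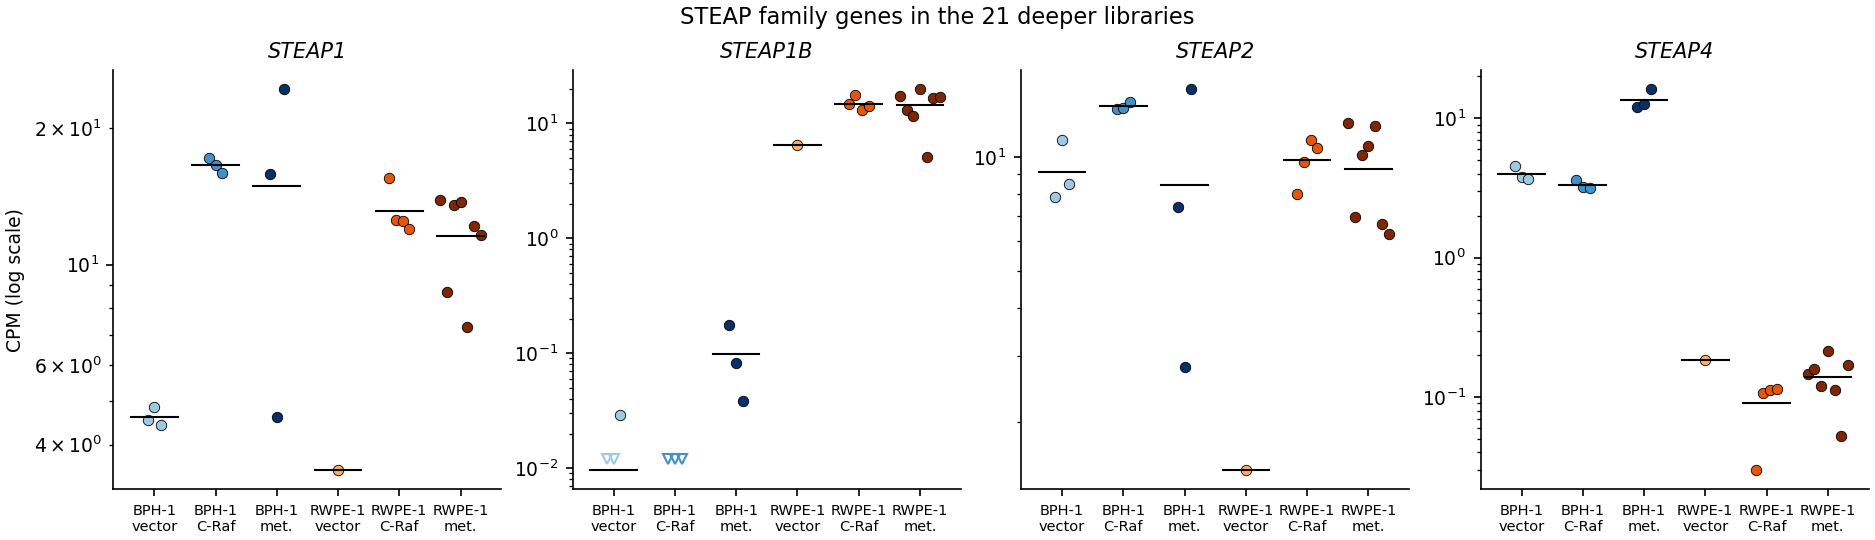
Level of STEAP1, STEAP1B, STEAP2 and STEAP4 (CPM, log y axis) in each of the 21 deeper libraries (points) of the 6 groups (x axis), with the group mean as a line and open triangles for libraries at 0. STEAP1 and STEAP2 are lowest in the RWPE-1 vector control, at 3.52 and 1.5 CPM; STEAP1B is near 0 in BPH-1 and STEAP4 in RWPE-1.

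FOLH1 (ENSG00000086205, chromosome 11, 49146635 to 49208670, minus strand), the folate hydrolase on the surface of luminal cells, was found in RWPE-1 and was at the detection limit in BPH-1. The 12 RWPE-1 libraries held 921 counts and the 9 deeper BPH-1 libraries held 2, 1 each in vector control 2 and line R069. RWPE-1 levels were 1.44 CPM in the vector control, 3.54, 2.61, 2.19 and 2.64 in C-Raf parental libraries, and 1.18 to 3.12 with a median of 1.5 in metastasis-derived lines, so the vector control lay below the C-Raf parental libraries, and the metastasis-derived range overlapped both. Between C-Raf parental cells the difference, 385 counts against 0, was at least 79.3-fold, taking 3 counts over the BPH-1 group as the floor. FOLH1 passed the filter of that comparison through RWPE-1, so nothing is read from its call (adjusted p = 3.35e-05). Within RWPE-1 the log2 fold change was 0.93 ± 0.56 with C-Raf (adjusted p = 0.387) and -0.64 ± 0.29 in the metastasis-derived lines (adjusted p = 0.609). Of the 50-base words of FOLH1, 28.1% also occur in FOLH1B, which is not protein-coding and held 2 counts over all the deeper libraries.

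KLK3 was at 0 counts in all 24 libraries, and KLK2 had 1 count, in BPH-1 thymus line R075 (0.0381 CPM). Over 697338216 protein-coding counts a total of 0 allows a level of up to 0.0043 CPM on average, for counting error only. KLK2 (ENSG00000167751, 50861568 to 50880567) and KLK3 (ENSG00000142515, 50854915 to 50860764) lie side by side on the plus strand of chromosome 19, within a cluster of tissue kallikreins of which 13 more were in the tables. KLK4, the other prostate kallikrein, was below 1 CPM in every group.

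Of those 13, 5 had a mean of at least 1 CPM in both BPH-1 groups from before injection and 10 in the metastasis-derived lines, against 7, 2 and 1 in the RWPE-1 groups. Among these 13, KLK5 and KLK7 are proteases of the outer skin, where they help shed keratinized cells. The summed level of the 13 genes was 126 to 129 CPM in BPH-1 vector control, 125 to 133 in C-Raf parental and 199 to 714 in metastasis-derived libraries. Most of the sum before injection was KLK10, at 93.0 to 96.2 and 104 to 112 CPM. With C-Raf, KLK10 (log2 fold change 0.21) and KLK11 (0.41) rose while KLK5 (-1.74), KLK6 (-0.98) and KLK7 (-0.55) fell, 5 of 6 tested where 59.8% of all genes were called. At the last step, 4 of the 6 kallikreins that were also tested in the C-Raf step rose (KLK1, KLK5, KLK7 and KLK11) and none fell, where 21% of all genes rose and 16.8% fell. KLK8, KLK12, KLK13 and KLK14, with 0 to 9 counts in each C-Raf parental library, passed the filter through the metastasis-derived lines, so their calls are not counted. In those lines KLK13 lay between 5.94 and 43.9 CPM, KLK12 between 3.66 and 44.0, KLK14 between 0.762 and 12.48 and KLK8 between 0.495 and 2.38. KLK7 went from 6.52 to 7.78 CPM in C-Raf parental cells to 97.9, 299 and 53.5 CPM in lines R069, R072 and R075 thymus. KLK2 and KLK3, between KLK15 and KLK4 on the chromosome, stayed at 1 and 0 counts.

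In RWPE-1 the cluster was lower in every library with C-Raf than in the vector control. The summed level was 98.8 CPM in the vector control, 2.47 to 18.3 in C-Raf parental and 1.35 to 5.09 in metastasis-derived libraries. KLK10 stood at 49.8 CPM in the vector control and at 9.48, 1.59, 2.84 and 1.81 CPM in C-Raf parental libraries, the first of these from the table of the vector control. KLK5 stood at 31.1 CPM against a mean of 1.20 ± 1.8 (SD, n = 4). With 1 vector control, edgeR called none of the 8 tested genes (KLK5 and KLK10 both at adjusted p = 0.0755), 6 of 8 had an unadjusted p below 0.05 and DESeq2 called 1, KLK10. Most of the 8 had only a few counts in the libraries with C-Raf and passed the filter through the groups where they are higher, so nothing is read from these counts. For KLK7 the metastasis step differed between the lines by -6.66 ± 1.3 (RWPE-1 minus BPH-1, adjusted p = 0.000814), in a comparison in which 44.5% of all genes were called and 23.5% were lower. KLK7 passed the filter of that fit through BPH-1. It had 30, 2, 1 and 0 counts in RWPE-1 C-Raf parental libraries and 0 to 4 in RWPE-1 metastasis-derived lines, so nothing is read from this call.

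**Figure D5:**
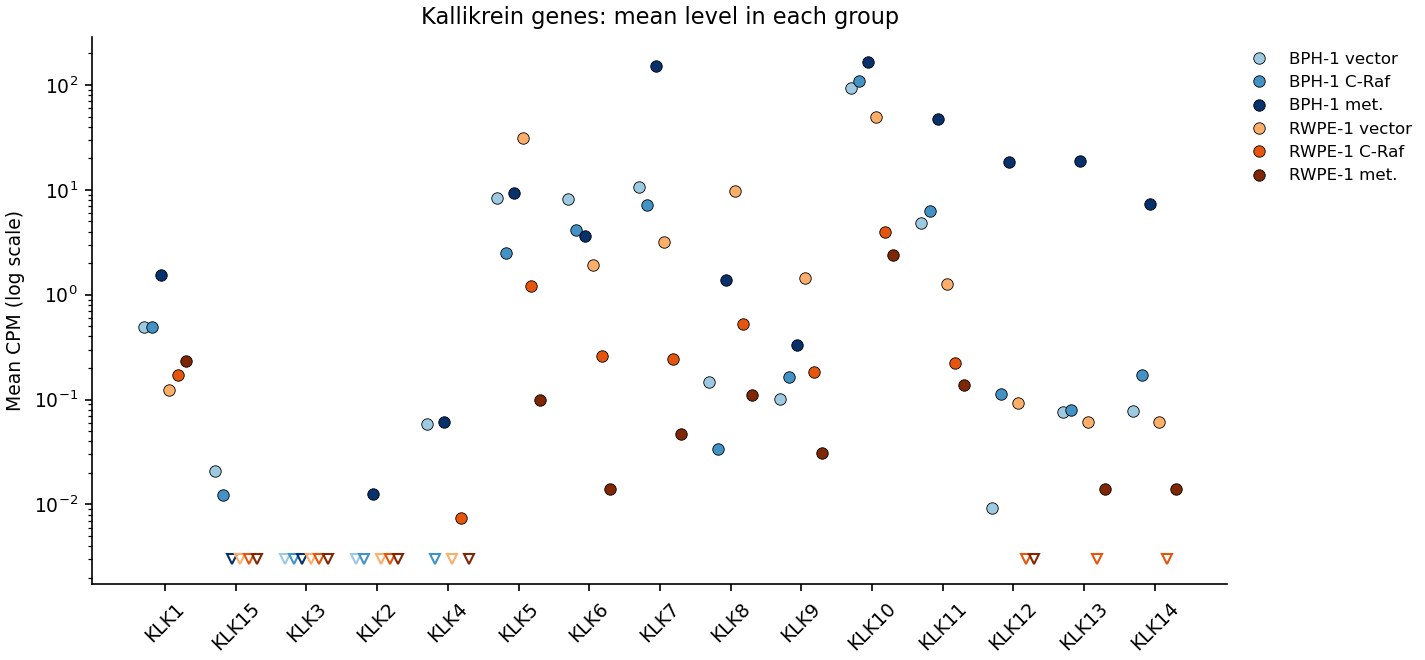
Group mean level (CPM, log y axis) of the 15 kallikrein genes of chromosome 19 (x axis), KLK2 and KLK3 included, for the 6 groups, with open triangles for groups at 0. KLK3 is at 0 in every group, while KLK7, KLK12, KLK13 and KLK14 are highest in BPH-1 metastasis-derived lines and KLK5 and KLK10 are far lower in RWPE-1 with C-Raf than in the RWPE-1 vector control.

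ACPP (ENSG00000014257, chromosome 3, 132317367 to 132368298, plus strand; also called ACP3), prostatic acid phosphatase, fell with C-Raf in BPH-1 and rose in the metastasis-derived lines beyond its starting level. Its levels were 1.22, 0.994 and 1.01 CPM in vector control, 0.234, 0.501 and 0.184 CPM (7, 15 and 5 counts) in C-Raf parental libraries, and 9.59, 16.1 and 3.66 CPM (272, 196 and 96 counts) in lines R069, R072 and R075 thymus. The 3 groups did not overlap. The fall was 3.44-fold (log2 fold change -1.78 ± 0.31, adjusted p = 2e-05) and was called in 6 of 6 fits that left out 1 library. The rise was 32.9-fold (5.04 ± 0.73, adjusted p = 0.00453), again called in 6 of 6 (4.44 to 5.56). In each step ACPP passed the filter through the group where it was higher. The C-Raf parental libraries held only 7, 15 and 5 counts. For the rise, the 4 other settings, no filter among them, gave 4.53 to 5.11 and all called it. Both steps share the C-Raf parental libraries, and the groups of the second step come from different tables.

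RWPE-1 showed the first of these steps in level and not the second. ACPP was at 0.857 CPM (28 counts) in the vector control, at 0.390, 0.108, 0.197 and 0.086 CPM in C-Raf parental libraries and at 0.0448 to 0.239 CPM, with a median of 0.105, in the metastasis-derived lines. The vector control lay above all the others, and the latter groups overlapped near the level of a few counts. The log2 fold changes were -2.12 ± 0.76 (adjusted p = 0.194; -2.69 and called without C-Raf parental library 1, adjusted p = 0.0392; -1.13 within the table of the vector control, adjusted p = 0.543) and -0.72 ± 0.52 (adjusted p = 0.767). The metastasis step differed between the lines by -5.71 ± 0.85 (interaction, adjusted p = 6.85e-05), called in 17 of 17 fits that left out 1 library, in a test that called 44.5% of all genes (23.5% lower in RWPE-1). ACPP passed the filter of that test through the BPH-1 metastasis-derived lines. The BPH-1 C-Raf parental, RWPE-1 C-Raf parental and RWPE-1 metastasis-derived groups held 27, 27 and 32 counts in all. The 4 other settings, no filter among them, gave -5.84 to -5.48 and all called it.

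TMPRSS2 (ENSG00000184012, chromosome 21, 41464551 to 41531116, minus strand), a transmembrane serine protease best known in prostate for its fusions with ETS genes, was near the detection limit except in the BPH-1 metastasis-derived lines. It had 9, 13 and 11 counts in the BPH-1 vector controls (0.249 to 0.431 CPM) and 6, 2 and 4 counts in C-Raf parental libraries (0.0668 to 0.201 CPM). Lines R069, R072 and R075 thymus held 51, 446 and 136 counts, or 1.80, 36.6 and 5.18 CPM. All 3 lay above every vector control and C-Raf parental library, with R072 the highest. TMPRSS2 passed the filter through these lines, so its fitted change of 6.76 ± 1.4 on the log2 scale (adjusted p = 0.013) rests on 12 counts in the C-Raf parental libraries together. With no filter on low counts the change was 6.67 ± 1.3 (adjusted p = 0.0117). It was called in the 3 fits that left out a metastasis-derived line, 4.64 without R072, and missed the threshold in the 3 fits that left out a C-Raf parental library (adjusted p = 0.0562 to 0.0592).

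In RWPE-1 the 12 libraries held 11 TMPRSS2 counts in all, with 6 libraries at 0 and a maximum of 4 counts (0.122 CPM) in line Spine2. Pooled over metastasis-derived lines, BPH-1 held 633 counts and RWPE-1 held 6, or 9.48 against 0.0217 CPM, with 446 of the 633 counts from R072 and 4 of the 6 from Spine2. The metastasis step differed between the lines by -7.03 ± 2.3 (interaction, adjusted p = 0.0207), a fit in which TMPRSS2 again passed the filter through the BPH-1 metastasis-derived lines. With no filter it was -6.97 ± 2.3 (adjusted p = 0.0229), and without RWPE-1 C-Raf parental library 1, which held 3 of the 4 counts of its group, the adjusted p was 0.276. Over both lines together the step was 4.88 ± 1.4 (adjusted p = 0.0649) and none of 6 tested genes was called by edgeR or by DESeq2, where 2.51% of all genes were called and 2 of the 6 had an unadjusted p below 0.05.

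The scaling of line R072 bears on these values. Without its scaling factor the levels in R072 were 21.7 CPM for TMPRSS2 and 9.53 for ACPP, and as a share of all counts, RN7SL1 included, they were 8.44 and 3.71 on the same scale, still above every BPH-1 library from before injection for both genes. The other levels in R072 moved likewise: STEAP1 was 2.72 without the factor and 1.06 as a share of all counts, FKBP5 10.8 and 4.2, and FOXA1 0.583 and 0.227. Of the 3 low-depth libraries, R074 held 4 counts of TMPRSS2 (30.2 CPM) and the others 0, and none held a count of ACPP. FOXA1 had 1 count in them, FKBP5 had 8, 9 and 0 counts in R071, R074 and R075, and STEAP1 had 1, so that only FKBP5 was above the 3-count floor in more than 1 of these libraries.

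Other genes of the androgen response were taken from a list of 34, of which 31 were in the tables. With C-Raf in BPH-1, where 30.4% of all genes rose and 29.4% fell, 11 of 23 tested rose, led by LRIG1 (2.28), ALDH1A3 (1.49), STEAP2 (0.59) and SLC45A3 (0.50), and 5 fell, led by NNMT (-1.67) and HPGD (-0.71), with a median of 0.089. In the BPH-1 metastasis-derived lines, against a background of 21% and 16.8%, 4 of 23 rose, led by HPGD (3.66), NDRG1 (3.31) and STEAP4 (2.10), and 8 fell, led by ALDH1A3 (-4.46), FADS1 (-2.44) and SLC45A3 (-2.13). MAF, with 6 counts in all C-Raf parental libraries, passed the filter through the metastasis-derived lines and is left out of that count. ALDH1A3, which makes retinoic acid, and the transporter SLC45A3 (prostein) thus rose and then fell, while HPGD, which degrades prostaglandin, fell and then rose. In RWPE-1, STEAP2 was the 1 call of 23 with C-Raf, where 0.396% of all genes were called (8 below an unadjusted p of 0.05, with STEAP2 and NDRG1 called by DESeq2). At the metastasis step, where 0.115% of all genes were called, edgeR called none of 23 (2 below an unadjusted p of 0.05, 1 called by DESeq2). Over all 13886 genes, 2506 and 1129 were below that unadjusted p. In RWPE-1 against BPH-1 C-Raf parental cells 10 of 23 were higher and 8 lower, against a background of 38% and 36%.

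Cell type markers moved beside these genes in BPH-1. The summed level of 12 luminal markers was 3353 to 3515 CPM in vector control, 2906 to 2993 in C-Raf parental libraries and 706 to 1212 in metastasis-derived lines, and that of 10 basal markers was 6107 to 6265, 8452 to 8759 and 14493 to 16591 CPM. At the metastasis step, where 21% of all genes rose and 16.8% fell, KRT8 (-2.96 ± 0.37, adjusted p = 0.00307), KRT18 (-2.84 ± 0.28, adjusted p = 0.00204), SLC45A3 and KRT19 fell and PSCA rose (4.16 ± 1.0, adjusted p = 0.0227) among 10 luminal markers tested, and KRT14 (3.91 ± 0.38, adjusted p = 0.00193), KRT15 (3.58 ± 0.87, adjusted p = 0.0212), DST and KRT5 rose among the 10 basal ones. TMPRSS2 and ACPP thus rose in lines in which the keratins of luminal cells fell; the part of cell make-up in their change was not tested, and in bulk RNA fewer cells of a type and less RNA per cell cannot be told apart. In RWPE-1 the luminal sum was 1323 CPM in vector control, 642 to 1042 in C-Raf parental libraries and 449 to 1183 in metastasis-derived lines, and the basal sum was 16307, 10459 to 13802 and 7775 to 14561 CPM. In the same order, the haematopoietic sum was 36.3, 59.6 to 142 and 79.9 to 161 CPM, and the stromal sum 7.93, 9.54 to 24.5 and 13.6 to 64.3 CPM. With C-Raf in RWPE-1, where edgeR called 0.396% of all genes, it called none of 4 haematopoietic and 6 stromal markers tested. DESeq2 called CD68 and THY1. Of the 12 luminal markers, 8 to 10 had a mean of at least 1 CPM in each group, and the secretory ones MSMB and KLK4 were below it in every group. All 10 basal markers were above 1 CPM in every group. In the BPH-1 metastasis-derived lines the stromal markers summed to 52.5 to 71.8 CPM against a median of 12.3 CPM in C-Raf parental cells, where COL1A1 rose (2.45 ± 0.20, adjusted p = 0.0015) and COL1A2, COL3A1, DCN, LUM and THY1 were below 1 CPM. Of 7 haematopoietic markers, which summed to 7.63 to 26.1 CPM against 28.3 to 31.4 CPM, SPI1 had 1 count in all in C-Raf parental cells and a mean of 0.929 CPM in these lines, and PTPRC, CD3E, LYZ and HBB were also below 1 CPM. SPI1 passed the filter through the metastasis-derived lines, so nothing is read from its call (adjusted p = 0.00464). The neuroendocrine markers summed to 32.1 to 138 CPM in these lines against 49.4 to 49.7 CPM in C-Raf parental cells, with ENO2 at 17.4 to 129 CPM. SYP rose at that step (1.59 ± 0.29, adjusted p = 0.00849). ENO2 had fallen with C-Raf (-0.31 ± 0.037, adjusted p = 4.29e-08), when the sum went from 57.4 to 61.3 CPM to its C-Raf parental level. CHGA, NCAM1 and INSM1 had means below 1 CPM in every group. NCAM1 passed the filter of the C-Raf step through the C-Raf parental libraries, so nothing is read from its call (1.89 ± 0.34, adjusted p = 2.34e-05). The part of these markers in the changes of the 8 genes was not tested.

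Likeness was taken as Pearson's r of log2 CPM over the 21 deeper libraries, which differ in cell line, medium and table, and it is given as a description. ACPP was most like C2orf54 (r = 0.961), KRT78 (0.958) and BBOX1 (0.956), and TMPRSS2 most like NCCRP1 (0.969), MUC16 (0.968) and CCNL1 (0.963). STEAP1 was most like TFPI2 (0.936), HMGA2 (0.884) and ELK3 (0.875), the weakest set, with TFPI2 also on chromosome 7. FOXA1 was most like COPG2 (0.956), SLC48A1 (0.945) and SLC39A3 (0.94). FKBP5 was most like TRAPPC13 (0.993), YME1L1 (0.992) and VRK2 (0.992), and FOLH1 most like PRKCDBP (0.987), RSPO4 (0.986) and ZNF816 (0.986). Both FKBP5 and FOLH1 differed between the cell lines, and likeness within a line was not tested. Among the 8 genes themselves the highest were FOLH1 with FKBP5 (0.969) and ACPP with TMPRSS2 (0.886), and the lowest was FKBP5 with TMPRSS2 (-0.721), while STEAP1 stayed between -0.269 and 0.122 with the other 5.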

How the data were processed

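RNA from 24 libraries had been sequenced with an mRNA library kit, and the authors deposited 4 tables of expected counts per gene, made from adapter-trimmed reads aligned with STAR and quantified with RSEM on hg38, per the labels and the study's methods. Expected counts share out reads that match several genes, and 9.85% of the values were not whole. They were rounded, kept for protein-coding symbols of GENCODE 29, and scaled to CPM with edgeR's trimmed mean of M-values (TMM). Of the 60448 symbols, 36628 matched GENCODE directly and 885 by an older symbol. No library column lacked a listed sample.

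Tests were edgeR 4.0.16 quasi-likelihood fits (R 4.3.3) after filterByExpr, with p adjusted by Benjamini-Hochberg over all genes tested, two-sided, and called below 0.05. BPH-1 C-Raf parental against vector control, BPH-1 metastasis-derived against C-Raf parental, and RWPE-1 against BPH-1 were fitted on their own groups, the RWPE-1 steps on all RWPE-1 groups, the fits over both lines on all groups, and the interaction on all but the vector controls. In BPH-1, differences between library pairs were 1.72 to 4.59 times the variance of counting in vector control and 2.15 to 2.30 times in C-Raf parental cells. Between the metastasis-derived lines they were 205 to 1101 times. The fit of the BPH-1 metastasis step pooled the spread of its groups, so its p-values rest on a spread that is neither group's own. Correlations used log2 CPM with a prior count of 2. Fits were tested on simulated data. Intervals and floors (3 counts) cover counting error only. Alternatives were DESeq2 1.42.0, other scaling, no filter, a table term, single tables, the low-depth libraries, a replicate block and leaving out each library.

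The 8 genes and all gene lists were chosen with earlier results of these data known. Beyond the 8 genes, the text names up to 4 called genes with the largest change per list and comparison, and the 3 genes most alike; other named genes (the STEAP and kallikrein families, GATA3 in the metastasis step, KLF9, TSC22D3, SPI1 and markers given by level) were chosen after their values were seen. Marker lists covered luminal, basal, neuroendocrine, stromal and haematopoietic cells. Some further genes are not reported here.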

Additional observations from a re-analysis of the deposited data

Results flagged for a closer look

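In the group of 4 RWPE-1 C-Raf parental libraries, library 1 stood far from the others for FOXA1 (9.66 CPM) and for FKBP5 (870 CPM); it is the one that shares a table with the vector control. Line Spine2 stood apart for TMPRSS2 among the RWPE-1 metastasis-derived lines at 0.122 CPM, which is 4 counts. Single counts set 2 more such values among all 6 BPH-1 metastasis-derived libraries, the low-depth ones included, KLK2 in thymus line R075 (0.0381 CPM) and FOLH1 in line R069 (0.0352 CPM). Chance would mark about 1 in 20 groups in this way, but a group with 1 count in all is always marked, so nothing is read from those of KLK2 and FOLH1.

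The metastasis step differed between the cell lines for TMPRSS2, by -7.03 on the log2 scale (RWPE-1 minus BPH-1), and for ACPP, by -5.71, both called by edgeR's interaction test. Both genes passed the filter on low counts through the BPH-1 metastasis-derived lines. The other 3 groups of that test held 12, 4 and 6 counts of TMPRSS2 and 27, 27 and 32 of ACPP. For TMPRSS2 the adjusted p was 0.0229 with no filter and 0.276 without RWPE-1 C-Raf parental library 1. For ACPP the 4 other settings, no filter among them, all made the call. Among the low-depth libraries, which were kept out of the reported comparisons, R074 held TMPRSS2 at 30.2 CPM from 4 counts.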

How the results depend on the processing

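In BPH-1 metastasis-derived against C-Raf parental cells, 5079 genes were called, 2098 with the 3 low-depth libraries, and 1957 to 8313 when 1 library was left out, the latter without line R072. In RWPE-1 C-Raf parental cells against vector control, 55 were called, 808 by DESeq2, 0 by edgeR with those 2 groups alone (1855 of 13479 at an unadjusted p below 0.05), 111 within the table of the vector control, and 18 to 1447 without 1 library, the latter without C-Raf parental library 1; leaving out the only vector control could not be run. In RWPE-1 metastasis-derived against C-Raf parental cells, 16 were called, 174 by DESeq2, 2 and 181 within the tables of 3 and of 1 C-Raf parental libraries, and 4 to 41 without 1 library. Over both lines, the C-Raf step called 124, 458 by DESeq2, 37 with the low-depth libraries and 38 to 287 without 1 library, and the metastasis step called 383, 938 by DESeq2 and 98 to 478 without 1 library. The interaction called 6353, 4177 with the low-depth libraries and 5507 to 7512 without 1 library. The cause was not tested.

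Of the log2 fold changes of the 8 genes, 697 values under alternatives kept direction and call, 14 gained a call, 12 lost one, and 18 changed sign, all of these in results that were not called. Without 1 library, STEAP1 in the BPH-1 metastasis step ran from -0.61 to 0.31, the latter without line R072. In the RWPE-1 metastasis step FOXA1 ran from -0.50 to 0.18 and FKBP5 from -0.077 to 0.17, the highest values without C-Raf parental library 1, and FKBP5 was 0.13 within the table of 3 C-Raf parental libraries. For the C-Raf step over both lines, TMPRSS2 ran from -1.10 to 0.61 (1.04 by DESeq2), turning positive when any BPH-1 C-Raf parental library was left out, FOLH1 from -0.20 to 0.93 and ACPP from -2.02 to 0.89, both turning without the RWPE-1 vector control. For the metastasis step over both lines FKBP5 ran from -0.031, without thymus line R075, to 0.21. The STEAP1 interaction ran from -0.48, without line R072, to 0.47, without thymus line R075, and was 0.083 with the low-depth libraries.

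Replicate numbers did not pair the BPH-1 libraries, since deviations of same-numbered vector control and C-Raf parental libraries correlated at 0.042, -0.053 and -0.038. With the replicate block, 7682 genes were called against 7911, and the call of none of the 4 tested genes changed (STEAP1 1.85, FOXA1 -0.47, FKBP5 -0.15, ACPP -1.80). Counts of 0 to 15 limit TMPRSS2, ACPP and FOLH1 where they are low.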
